A study of Mus musculus with 7 samples.

Results

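The genes described here mark lymphoid priming in early blood progenitors. They were taken by symbol from a list of 10 genes: Flt3, Il7r, Dntt, Rag1, Rag2, Notch1, Satb1, Ikzf1, Tcf3 and Ighm. Of the 10, 9 were found among the 24421 gene symbols with counts, and Ighm was not analysed here. All 9 passed the expression filter that left 13340 genes for testing. RNA-seq was performed on LSK (Lin-Sca1+Kit+) cells, the bone marrow fraction with the blood stem cells and their multipotent progeny, to describe how loss of 1 allele of Ddx41, a DEAD-box RNA helicase, alters these cells. Lethally irradiated BoyJ mice received marrow from RosaCreERT2 donors that were either Ddx41+/flox or Ddx41+/+. All recipients were given 1 mg of tamoxifen daily in 2 rounds of 5 days separated by 2 days. LSK cells were sorted 8 weeks after transplant. There were 4 Ddx41+/+ samples, numbered 1 to 4, and 3 Ddx41+/- samples, numbered 6 to 8, each taken here as 1 recipient mouse. CreERT2 and tamoxifen were common to both genotypes. Any other difference between the donors of the 2 genotypes cannot be told apart from that in Ddx41. The Rosa26 locus is active in most cell types, so excision in donor cells was not restricted to 1 blood lineage. Ages of the mice are not given in the sources used here, nor is it stated whether these LSK cells were sorted for the donor CD45 allele, so remaining host cells may be included.

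Multipotent progenitors with high surface Flt3 (lymphoid-primed multipotent progenitors) are the part of the LSK compartment from which most lymphoid cells arise, and they begin to transcribe lymphoid genes at low level before they commit. The E protein E2A (encoded by Tcf3), Ikaros (Ikzf1) and Satb1 help to open this program. Terminal transferase (Dntt) and the recombinase genes Rag1 and Rag2 are among its early targets, the interleukin 7 receptor (Il7r) marks the next step, and Notch1 directs cells toward the T lineage.

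Total counts were between 32234499 and 43751290 per sample, and the biological coefficient of variation was 12.9%. Expression is given in CPM, the counts of a gene scaled to a common library size after TMM scaling, which corrects library totals for composition. Ddx41 was at 97.9 ± 6.43 CPM (SD, n = 4) in the Ddx41+/+ samples. In the Ddx41+/- samples it was at 67.3 ± 2.63 CPM (SD, n = 3), a log2 fold change of -0.54 (SE 0.071, edgeR adjusted p = 0.0052), lower in all 3 as the labels imply. An opposite-strand gene, Gm46416, covers 17.38% of the Ddx41 exon bases. The markers of the gate were detected in all 7 samples, with Kit at 427 to 505 CPM, Cd34 at 647 to 830.0 CPM and Ly6a (Sca-1) at 13.3 to 30.5 CPM. Ddx41+/- sample 7 stood apart in B-lineage and plasma-cell transcripts. Its Jchain was at 346 CPM against 26.0 to 128 CPM in the other samples, and its Irf4 was at 19.7 CPM against 1.45 to 2.59 CPM.

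None of the 9 genes passed the test between genotypes. At a Benjamini-Hochberg adjusted p under 0.05 over all genes tested (edgeR quasi-likelihood), 0 of 9 were called, beside 29 of 13340 genes (0.217%). DESeq2 also called 0 of 9 (1.17% of all genes) and so did limma-voom with sample quality weights (0.292%). At an unadjusted p under 0.05, 2 of the 9 were lower in Ddx41+/- cells, Flt3 and Satb1, and 0 were higher, where 10.6% of all genes were under that value. In 0 of 9 did the CPM ranges of the genotypes separate, against 10.1% of all genes, of which 5.21% were lower and 4.85% higher in Ddx41+/-. The fitted log2 fold changes, Ddx41+/- minus Ddx41+/+, were below 0 for 7 genes and above 0 for 2, with a median of -0.13 beside -0.0048 over all genes tested. Leaving out Ddx41+/- sample 6 changed the count of called genes from 0 to 1, which was Flt3.

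**Figure D1:**
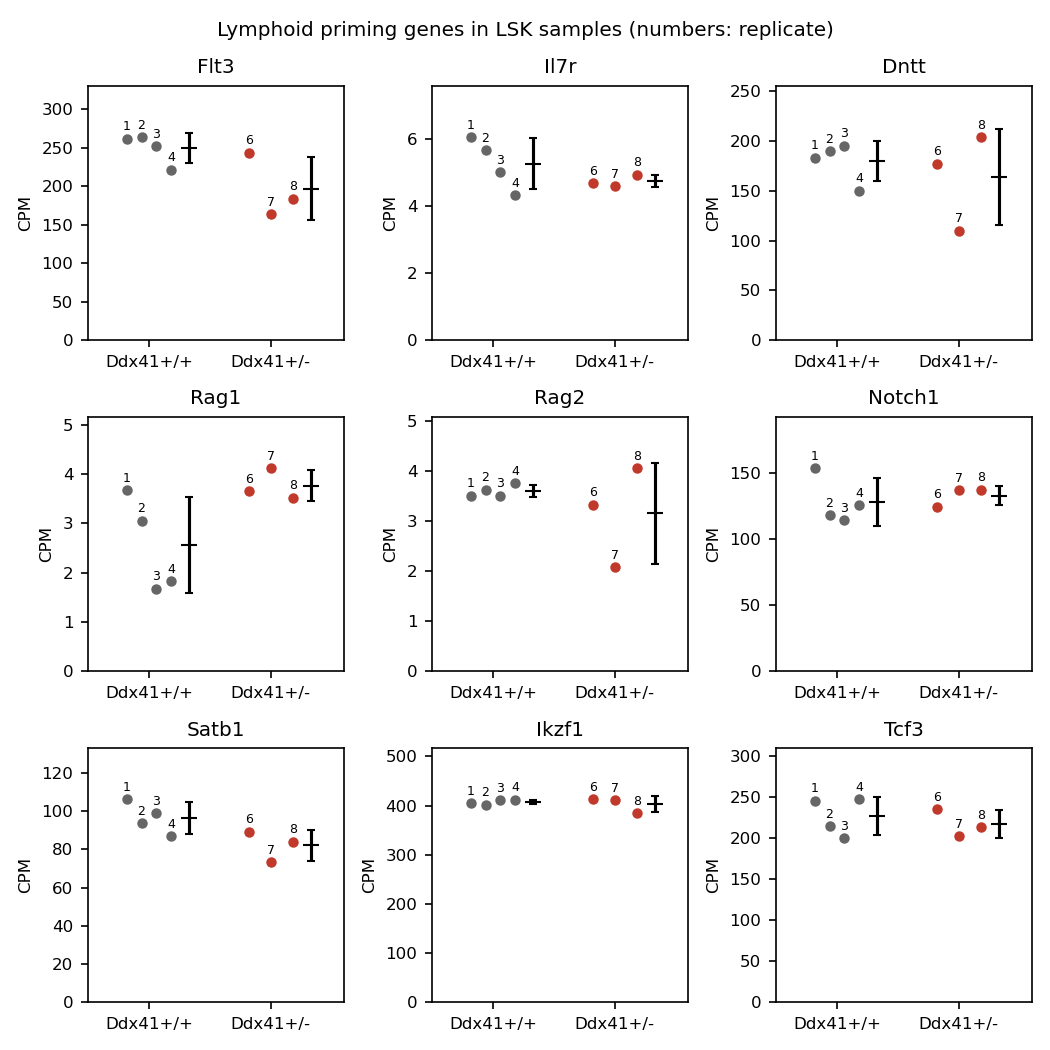
Each panel shows 1 gene, with CPM on the y axis from 0 and the 2 genotypes on the x axis. Points are the 4 Ddx41+/+ and 3 Ddx41+/- samples, bars show the mean ± SD, and the genotypes overlap in every panel, with Flt3 at 222 to 264 CPM in Ddx41+/+ and 164 to 244 CPM in Ddx41+/- samples.

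As CPM per kilobase of exon (RPKM), the levels of the 9 genes in Ddx41+/+ LSK cells spread widely. Dntt was highest with 78.3 RPKM, above 95.66% of 12846 genes ranked, followed by Ikzf1 at 70.5, Tcf3 at 56.3 and Flt3 at 40.5 RPKM. Notch1 lay mid-range at 9.01 RPKM and Satb1 at 5.08 RPKM. Il7r and Rag2 were low at 1.13 and 1.05 RPKM, and Rag1 was lowest at 0.387 RPKM, above only 12.87% of genes. Over all 7 samples, the ranges of neighbours in this order were apart from Ikzf1 down to Il7r, but overlapped between Dntt and Ikzf1, between Il7r and Rag2, and between Rag2 and Rag1. Dntt RNA was thus abundant and Rag RNA sparse in these cells. The lengths are unions of all annotated exons, 14.23 kb for Notch1 and 19.03 kb for Satb1. Such a union can exceed the length of any 1 transcript, so the order depends on the annotation too. In CPM, Notch1 and Satb1 had Ddx41+/+ means of 128 and 96.6.

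Flt3 encodes the receptor tyrosine kinase that supports lymphoid-primed progenitors, and it lies at chr5:147330741-147400489 on the minus strand (GRCm38). Its start region is shown because Flt3 leads the list, the Rag1 and Rag2 start regions because these neighbouring genes had fold changes of opposite sign, and that of Blnk because it was the only gene called among the other lymphoid genes examined. Each run holds 250 bases before and 30 bases after the RefSeq start (GRCm38.p6), read 5′ to 3′ on the strand of the gene, and capitals mark an E-box (CANNTG, the motif of E proteins) or the Ikaros core TGGGAA on either strand. The capitals that end the Rag1 run are an E-box that continues past the window. The positions are chr5:147400460-147400739 (minus) for Flt3, chr2:101649503-101649782 (minus) for Rag1, chr2:101624462-101624741 (plus) for Rag2 and chr19:40994192-40994471 (minus) for Blnk.
Flt3: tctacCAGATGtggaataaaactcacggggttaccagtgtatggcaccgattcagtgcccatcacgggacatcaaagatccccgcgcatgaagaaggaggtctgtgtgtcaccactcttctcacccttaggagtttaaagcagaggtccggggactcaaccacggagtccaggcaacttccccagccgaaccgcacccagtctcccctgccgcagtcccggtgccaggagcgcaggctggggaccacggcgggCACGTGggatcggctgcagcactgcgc
Rag1: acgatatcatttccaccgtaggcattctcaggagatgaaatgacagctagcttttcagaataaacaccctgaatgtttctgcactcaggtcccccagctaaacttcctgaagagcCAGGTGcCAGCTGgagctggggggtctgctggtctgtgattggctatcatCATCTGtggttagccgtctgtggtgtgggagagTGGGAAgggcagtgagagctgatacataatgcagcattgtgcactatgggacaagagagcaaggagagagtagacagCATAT
Rag2: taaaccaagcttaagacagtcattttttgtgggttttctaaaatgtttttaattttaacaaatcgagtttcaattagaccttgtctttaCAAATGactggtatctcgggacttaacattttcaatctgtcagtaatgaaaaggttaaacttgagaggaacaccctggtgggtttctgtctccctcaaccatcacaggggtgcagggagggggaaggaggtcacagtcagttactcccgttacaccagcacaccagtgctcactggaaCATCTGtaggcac
Blnk: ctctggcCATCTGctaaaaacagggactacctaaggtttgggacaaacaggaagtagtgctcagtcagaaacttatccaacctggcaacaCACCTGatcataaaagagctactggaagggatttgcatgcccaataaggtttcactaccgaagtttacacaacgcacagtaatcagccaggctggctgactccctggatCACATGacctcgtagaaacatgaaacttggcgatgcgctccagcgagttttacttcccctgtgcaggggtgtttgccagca

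An E-box is common in such windows. In windows of 250 bases before to 50 after the start, 72.31% of 32851 RefSeq mouse promoters held one, as did at least 1 promoter of 7 of the 9 genes. Notch1 and Ikzf1 held none. The form CAGGTG was present in 20.21% of all promoters and in those of 2 of the 9, Rag1 and Satb1. The Ikaros core was in 25.56% of all promoters and again in those of Rag1 and Satb1. Satb1 has 5 promoters in the table and Ikzf1 has 2, so these had more chances of a match than the other genes, each with 1. The letters describe the windows and show no binding.

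Flt3 had the lowest log2 fold change of the 9 genes. Flt3 was at 262, 264, 253 and 222 CPM in Ddx41+/+ samples 1 to 4 and at 244, 164 and 184 CPM in Ddx41+/- samples 6 to 8. Samples 7 and 8 lay below all Ddx41+/+ samples, while sample 6 lay within their range. The means were 250.1 ± 19.7 CPM (SD, n = 4) and 197 ± 41.5 CPM (SD, n = 3), and Ddx41+/- reached 78.9% of Ddx41+/+. The fitted log2 difference was -0.34 (SE 0.12, 95% interval -0.61 to -0.07), with an edgeR p of 0.0181 and an adjusted p of 0.355. Without sample 6 it was -0.52 with an adjusted p of 0.0324, and without sample 7 it was -0.23 with an adjusted p of 0.715. A heatmap of the study marks Flt3 among changed genes of these same LSK samples, so its direction here is not independent evidence. In sorted bulk RNA, fewer cells of a type and less RNA per cell cannot be told apart.

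Kit, the receptor used to sort the cells, was at 427 to 505 CPM in Ddx41+/+ and at 456 to 490.2 CPM in Ddx41+/- samples. The ratio of Flt3 to Kit was 0.480 to 0.591 in Ddx41+/+ samples, 0.533 in sample 6, 0.360 in sample 7 and 0.375 in sample 8. Samples 7 and 8 lay below the Ddx41+/+ range on this scale. Kit varied less over the samples than Flt3, so the ratio largely follows Flt3 and is not separate evidence.

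Il7r encodes the interleukin 7 receptor alpha chain, needed for B and T cell precursors (chr15:9505788-9530176, minus strand). Il7r was at 6.07, 5.67, 5.02 and 4.34 CPM in Ddx41+/+ and at 4.70, 4.60 and 4.94 CPM in Ddx41+/- samples, the latter all inside the Ddx41+/+ range. The means were 5.27 ± 0.759 CPM (SD, n = 4) and 4.74 ± 0.175 CPM (SD, n = 3). This gave a log2 fold change of -0.15 (95% interval -0.57 to 0.26, edgeR adjusted p = 0.831). The lowest count was 155 reads, a counting error of 8.03%.

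Dntt encodes terminal deoxynucleotidyl transferase, which adds untemplated bases at V(D)J junctions (chr19:41029275-41059525, plus strand). Dntt was at 183, 189.7, 195 and 150.1 CPM in Ddx41+/+ samples and at 177, 109.7 and 204 CPM in Ddx41+/- samples. Sample 7 was the lowest and sample 8 the highest of all 7, so the Ddx41+/- samples enclosed the Ddx41+/+ range. The means were 179 ± 20.2 CPM (SD, n = 4) and 163 ± 48.4 CPM (SD, n = 3). The fitted log2 difference was -0.13 (95% interval -0.66 to 0.40, edgeR adjusted p = 0.883), and it turned to 0.084 without sample 7. Dntt did not keep a fixed ratio to Flt3 in the Ddx41+/- samples. The ratio was 0.677 to 0.772 in Ddx41+/+ and 0.726, 0.669 and 1.11 in samples 6, 7 and 8, so sample 8 combined low Flt3 with high Dntt.

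Rag1 and Rag2 encode the subunits of the recombinase that cuts at V(D)J recombination signals, and they lie with their 3′ ends facing each other on chromosome 2 (Rag1 at chr2:101638282-101649501, minus strand, and Rag2 at chr2:101624718-101632529, plus strand). Rag1 was at 3.68, 3.05, 1.67 and 1.82 CPM in Ddx41+/+ samples and at 3.66, 4.12 and 3.52 CPM in Ddx41+/- samples. Sample 7 was above every Ddx41+/+ sample, and samples 6 and 8 were below Ddx41+/+ sample 1 and above the other 3. For Rag1 the log2 fold change was 0.55 (SE 0.29, 95% interval -0.058 to 1.16, edgeR adjusted p = 0.525), farther from 0 than for the other 8 genes. It was between 0.40 and 0.78 when each sample was left out in turn.

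Rag2 had the opposite sign. Rag2 was at 3.51, 3.62, 3.51 and 3.76 CPM in Ddx41+/+ samples and at 3.33, 2.08 and 4.06 CPM in Ddx41+/- samples. The Ddx41+/+ samples were close together, and sample 7 lay below and sample 8 above them. Its log2 fold change was -0.18 (95% interval -0.72 to 0.35, edgeR adjusted p = 0.848), and it became 0.036 without sample 7. The ratio of Rag1 to Rag2 was 1.05, 0.843, 0.477 and 0.485 in Ddx41+/+ samples and 1.10, 1.99 and 0.867 in Ddx41+/- samples, with the highest value in sample 7. Both genes rested on few reads, with lowest counts of 53 for Rag1 and 70 for Rag2, which give counting errors of 13.7% and 12.0%. An overlapping gene, B230118H07Rik, shares 1.21% of the Rag1 exon bases on the same strand and 6.08% of those of Rag2 on the opposite strand.

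Notch1 encodes the receptor whose signal starts the T cell program (chr2:26457903-26516663, minus strand). Notch1 was at 154, 118, 115 and 126 CPM in Ddx41+/+ samples and at 125, 137 and 138 CPM in Ddx41+/- samples. All 3 Ddx41+/- samples fell inside the Ddx41+/+ range, whose upper end was sample 1. The fitted log2 difference was 0.055 (95% interval -0.14 to 0.25, edgeR adjusted p = 0.881). The genes 0610009E02Rik and Gm13568 cover 7.50% and 2.91% of the Notch1 exon bases on the opposite strand, and since the strand setting of the counting is not given, their reads cannot be told apart from those of Notch1.

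Of the nuclear factors, Satb1 was the only one under an unadjusted p of 0.05. Satb1 organizes chromatin and promotes lymphoid specification of stem cells (chr17:51736187-51833290, minus strand). It was at 106, 93.8, 99.0 and 87.0 CPM in Ddx41+/+ samples and at 89.4, 73.4 and 84.2 CPM in Ddx41+/- samples. Samples 7 and 8 lay below every Ddx41+/+ sample and sample 6 lay above 1 of them. The means were 96.6 ± 8.25 CPM (SD, n = 4) and 82.3 ± 8.12 CPM (SD, n = 3), so Ddx41+/- reached 85.2% of Ddx41+/+. The log2 fold change was -0.23 (SE 0.083, 95% interval -0.41 to -0.053), with an edgeR p of 0.0140 and an adjusted p of 0.330. Leaving out each sample in turn gave -0.29 to -0.16, with adjusted p-values of 0.208 to 0.744.

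The order of samples in Satb1 was much like that in Flt3, in which samples 7 and 8 were also the lowest pair. Satb1 relative to Flt3 was 0.355 to 0.406 in Ddx41+/+ samples and 0.366, 0.448 and 0.458 in samples 6, 7 and 8. Satb1 was therefore lower by less than Flt3 in samples 7 and 8.

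Ikzf1 encodes Ikaros, the zinc-finger factor needed for lymphoid priming (chr11:11685003-11772926, plus strand). Ikzf1 was at 405, 402, 410.4 and 412 CPM in Ddx41+/+ samples and at 414, 411 and 385 CPM in Ddx41+/- samples. It had the narrowest range of the 9 genes relative to its level, and only sample 8 lay below the Ddx41+/+ range. Ikzf1 had a log2 fold change of -0.015 with a 95% interval of -0.13 to 0.10 (edgeR adjusted p = 0.954), and it was 0.017 without sample 8.

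Tcf3 encodes the E2A proteins E12 and E47 (chr10:80409514-80433647, minus strand). Tcf3 was at 246, 215, 200.2 and 248 CPM in Ddx41+/+ samples and at 236, 203 and 214 CPM in Ddx41+/- samples, inside the Ddx41+/+ range. Its log2 fold change was -0.064 (95% interval -0.23 to 0.11, edgeR adjusted p = 0.829). Neither Ikzf1 nor Tcf3 had an interval that reached a difference of the size fitted for Flt3.

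**Figure D2:**
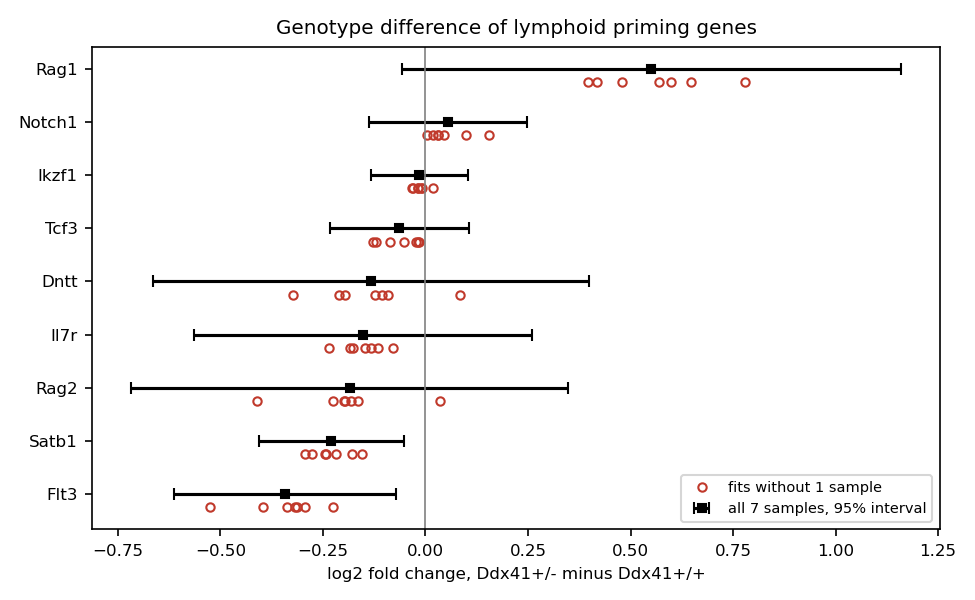
Points are fitted log2 fold changes (x axis, Ddx41+/- minus Ddx41+/+) of the 9 genes, ordered by value, with lines for the 95% interval. The intervals of Flt3 (-0.61 to -0.07) and Satb1 (-0.41 to -0.053) do not reach 0, and the other 7 do.

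The lowest value fell most often in Ddx41+/- sample 7, for 4 of the 9 genes, Flt3, Dntt, Rag2 and Satb1, and next in Ddx41+/+ sample 3, for 3, Rag1, Notch1 and Tcf3. Sample 7 was also the highest for Rag1. Over all 13340 genes, sample 7 was lowest for 21.85% and highest for 19.29%. Sample 7 is also the one with high Jchain and Irf4, and the part of that difference in the values of the 9 genes was not tested.

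The genes whose pattern over the 7 samples was most like Flt3 were sought by the root mean square difference of centred log2 CPM, over 11769 genes. They were Ptprcap (0.0491), Myl10 (0.0506), Cd151 (0.0682), 4933412E12Rik (0.0772) and Ccdc112 (0.0787). Ptprcap, which encodes a protein associated with the leukocyte phosphatase CD45, was at 88.1 to 109.9 CPM in Ddx41+/+ samples and at 94.3, 69.7 and 75.9 CPM in samples 6, 7 and 8. Of the other 8 lymphoid priming genes, Satb1 was the nearest at rank 74 (0.126), followed by Il7r at rank 1401. Rag1 was the farthest, at rank 11372.

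Another 101 genes of lymphoid priming, in 9 lists by role, were examined for their direction, and 96 were tested. Of these, 1 was called, Blnk, against the 0.217% of all genes, and 14 were at an unadjusted p under 0.05, 8 lower and 6 higher, against 10.6%. The median log2 fold change of the 96 genes was 0.036.

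**Figure D3:**
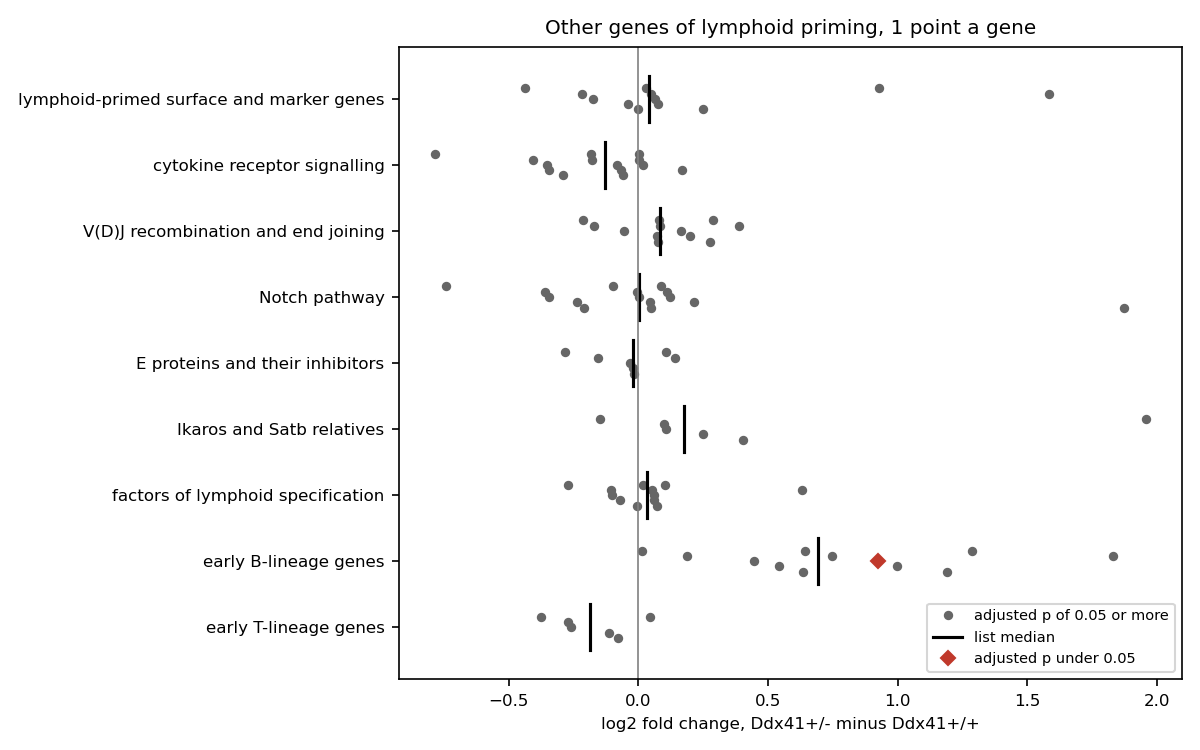
Each row is 1 list, each point the fitted log2 fold change (x axis, Ddx41+/- minus Ddx41+/+) of 1 tested gene, and each black bar the list median. The early B-lineage list has the highest median, 0.69, and holds the 1 gene with an adjusted p under 0.05, Blnk, drawn as a red diamond.

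In the list of cytokine receptor signalling, 0 of 14 genes were called, and 10 had a log2 fold change below 0 (median -0.13). The smallest p was that of Cish, a feedback inhibitor that is induced by STAT5. Cish was at 17.0, 13.4, 12.9 and 10.5 CPM in Ddx41+/+ samples and at 9.06, 7.48 and 6.88 CPM in Ddx41+/- samples. The genotypes did not overlap, and Ddx41+/- reached 58.1% of Ddx41+/+. The log2 fold change was -0.79 (SE 0.17, edgeR adjusted p = 0.0792), which missed the threshold, while DESeq2 gave an adjusted p of 0.0040. Kit in the same list had a log2 fold change of 0.0041, and it was chosen for mention after its values were seen.

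In the lymphoid-primed surface and marker list, 0 of 12 genes were called. Cd27, a co-stimulatory receptor of multipotent progenitors, had the smallest p, with a log2 fold change of -0.22 (edgeR adjusted p = 0.284). Cd27 was at 113 to 129 CPM in Ddx41+/+ samples and at 114, 100.3 and 103 CPM in Ddx41+/- samples, so samples 7 and 8 were again below the Ddx41+/+ range.

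In the list of V(D)J recombination and end joining, 0 of 12 genes were called and 9 were above 0, with a median of 0.083. Hmgb1, a DNA-bending cofactor of the recombinase, had the smallest p, with a log2 fold change of 0.28 (edgeR adjusted p = 0.355). Hmgb1 was at 201 to 209 CPM in Ddx41+/+ samples and at 227, 308 and 215 CPM in Ddx41+/- samples, all above the Ddx41+/+ range. Without sample 7 the log2 fold change of Hmgb1 was 0.098.

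In the Notch list, 0 of 15 genes tested were called (median 0.0016). Lfng, the glycosyltransferase that tunes Notch receptors, had the smallest p (log2 fold change -0.34, edgeR adjusted p = 0.264) and did not overlap, with 21.3 to 25.8 CPM in Ddx41+/+ and 17.4 to 19.2 CPM in Ddx41+/- samples. The E protein list had 0 of 7 genes called and a median of -0.020, which was 0.026 without sample 7. Tal1, a partner of E proteins in stem and erythroid cells, was at 100.7 to 109.5 CPM in Ddx41+/+ and at 85.1 to 93.0 CPM in Ddx41+/- samples, with a log2 fold change of -0.28 (edgeR adjusted p = 0.105, DESeq2 adjusted p = 0.0143). Both Lfng and Tal1 were lower in all 3 Ddx41+/- samples, yet neither passed the edgeR test.

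In the list of lymphoid specification factors, 0 of 12 genes were called, with a median of 0.035. The smallest p was that of Meis1, a homeobox factor of stem cells, at 75.3 to 93.5 CPM in Ddx41+/+ and 64.2 to 74.1 CPM in Ddx41+/- samples (log2 fold change -0.27, edgeR adjusted p = 0.245). In the list of Ikaros and Satb relatives, 0 of 6 were called, with a median of 0.18 and the smallest p for Ikzf3 (log2 fold change 1.96, edgeR adjusted p = 0.531). Ikzf3 encodes Aiolos, an Ikaros relative of maturing B and plasma cells, and its fold change was 0.16 without sample 7. In the early T-lineage list, 0 of 6 genes tested were called, and 5 were below 0, with a median of -0.19. Sample 7 was the lowest of all samples for 4 of these 6, and without it 3 of 6 were below 0, with a median of 0.0014. Gata3, required for the first T cell steps, had the smallest p (log2 fold change -0.38, edgeR adjusted p = 0.582). The early T-lineage genes Ptcra, Cd3e, Cd3g and Cd2 were below the expression filter, as was Dtx1 of the Notch list.

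In the early B-lineage list, 1 of 12 genes was called, higher in Ddx41+/-. All 12 fitted log2 fold changes were above 0, where 6512 of 13340 genes were, and their median was 0.69. The size differed between genes, with 0.014 for Cd79b, which had the most reads of the list (809 to 1310), and 0.19 for Igll1. Some of the genes had few reads, such as Pax5 with 7 to 73 and Blk with 24 to 67. At an unadjusted p under 0.05, 4 were higher, Blnk, Vpreb1, Pax5 and Pou2af1, and 0 were lower, beside 10.6% of all genes under that value (761 of 13340 genes higher). Ranges were apart and higher in Ddx41+/- for 3, Blnk, Ebf1 and Blk, beside 4.85% of all genes. Apart from Blnk, the genes named from this list were chosen after their values were seen.

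Blnk encodes the adaptor that links the pre-B and B cell receptor to downstream kinases (chr19:40928927-40994535, minus strand). Blnk was at 4.96, 4.81, 4.86 and 5.25 CPM in Ddx41+/+ samples and at 8.51, 11.5 and 8.27 CPM in Ddx41+/- samples. The Ddx41+/+ samples were close together and all Ddx41+/- samples were above them. The means were 4.97 ± 0.195 CPM (SD, n = 4) and 9.44 ± 1.82 CPM (SD, n = 3), with a log2 fold change of 0.92 (SE 0.17, 95% interval 0.55 to 1.29) and an edgeR adjusted p of 0.0401. The call was lost when any 1 sample was left out, with log2 fold changes of 0.75 to 1.01 and adjusted p-values of 0.054 to 0.197, the last without sample 7.

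Ebf1, the factor that starts the B program, was at 4.47, 3.13, 1.14 and 3.67 CPM in Ddx41+/+ and at 5.002, 4.75 and 4.78 CPM in Ddx41+/- samples (log2 fold change 0.63, edgeR adjusted p = 0.524). Pou2af1, a coactivator of B cell genes, was at 3.10 to 6.08 CPM in Ddx41+/+ samples and at 6.83, 22.2 and 5.34 CPM in Ddx41+/- samples. The high mean of Pou2af1 rested on sample 7, whereas Ebf1 was at a like level in all 3 Ddx41+/- samples. Sample 7 was the highest of all samples for 6 of the 12 genes and sample 6 for 5, and Ddx41+/+ sample 3 was the lowest for 8. Without sample 7 the list median was 0.50, with 10 of 12 above 0.

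**Figure D4:**
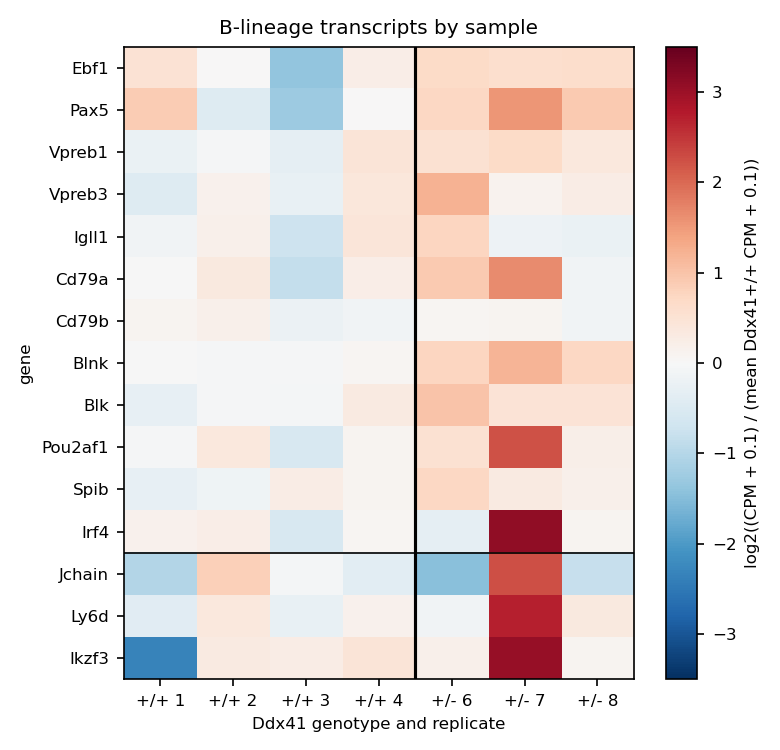
Rows are the 12 early B-lineage genes, then Jchain, Ly6d and Ikzf3, and columns are the 7 samples. Jchain and Ly6d were added outside the naming rules and are high in Ddx41+/- sample 7. Colour is the log2 ratio of CPM + 0.1 to the Ddx41+/+ mean + 0.1, and Irf4, Ly6d, Ikzf3 and Jchain are highest in Ddx41+/- sample 7, whereas Blnk and Ebf1 are higher in all 3 Ddx41+/- samples.

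Markers of other cell types that the sort could hold are given as summed CPM. The mature B and plasma cell markers, with 5 of 9 found, summed to 164 to 195 CPM in Ddx41+/+ and 178 to 242 CPM in Ddx41+/- samples, and most of this was Xbp1. The plasmacytoid dendritic cell markers summed to 2.37 to 4.09 CPM in Ddx41+/+ and 3.35 to 15.5 CPM in Ddx41+/- samples, the latter maximum from Ly6d in sample 7. Siglech, which defines those cells, was at 0.442 to 1.14 CPM in Ddx41+/+ and at 0.519 to 0.711 CPM in Ddx41+/- samples.

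The T and NK markers summed to 232 to 283 CPM in Ddx41+/+ and 264 to 290.4 CPM in Ddx41+/- samples, nearly all from Nkg7, while Cd3d, which defines T cells, was at 0.386 CPM or less. The neutrophil markers, 8 of 9 found, summed to 672 to 1160 CPM in Ddx41+/+ and to 1238 to 2114 CPM in Ddx41+/- samples. All 8 were above 0 in log2 fold change, where 6512 of 13340 genes were, and 1 was called, beside 0.217% of all genes. The long-term stem cell markers summed to 204 to 284 CPM in Ddx41+/+ and to 186 to 199.8 CPM in Ddx41+/- samples, with 8 of 9 below 0 and 0 called. The macrophage markers summed to 82.7 to 109 CPM and 89.8 to 129 CPM. Of 7 late erythroid markers, 4 globin genes were listed at 0 in all samples. The part of these markers in the values of the lymphoid priming genes was not tested.

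**Figure D5:**
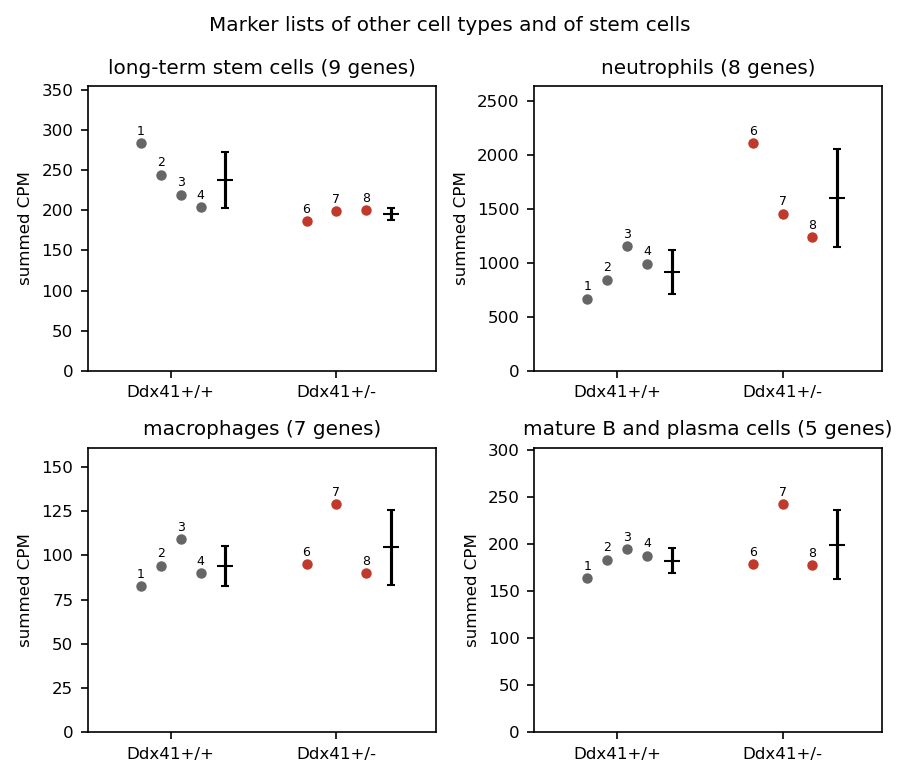
Panels show the summed CPM (y axis, from 0) of marker lists by genotype, with 1 point a sample and bars for the mean ± SD. Neutrophil sums do not overlap (672 to 1160 against 1238 to 2114 CPM), nor do long-term stem cell sums (204 to 284 against 186 to 199.8 CPM). Of single genes, 10.1% had ranges that did not overlap, and no such share was computed for sums.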

How the data were processed

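RNA-seq was performed on LSK cells of recipient mice, with 7 samples. The authors aligned the reads and counted them per gene, and the deposited values were raw counts per gene symbol. The submitters' processing notes name FastQC 0.11.7, HISAT2 2.0.5, featureCounts 1.5.2 and the mm10 assembly. The strand setting and the handling of reads shared between genes are not given in the sources used here. The library kit is TruSeq Stranded mRNA in the labels and TruSeq RNA v2 in the methods, so whether strand was kept is unclear. Per the name of the count table, a Ddx41+/- library numbered 5 was removed. The reason is not stated, and it was not analysed here. Reads shared by overlapping genes cannot be assigned from these counts.

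Samples were grouped by the labelled genotype. Total counts per sample were 32234499 to 43751290. All columns were used, which left 0 unused. Differences between genotypes were fitted in R 4.3.3 with edgeR 4.0.16 by quasi-likelihood (filterByExpr, TMM scaling, robust fit), two-sided, with Benjamini-Hochberg adjustment over 13340 genes and a threshold of 0.05. The edgeR standard errors and 95% intervals come from the same fit. CPM were computed from TMM-scaled library sizes. For levels between genes, CPM were divided by the union exon length of GENCODE M21 (GRCm38), joined by symbol, which matched 23376 symbols. Promoter sequences were read from RefSeq tables (GRCm38.p6). Alternatives were other scalings, no expression filter, a non-robust fit, DESeq2 1.42.0, limma-voom (limma 3.58.1) with sample quality weights, an adjusted p under 0.1 and leaving out each sample. The main edgeR fit was tested on simulated data, and the alternatives were not.

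The 9 genes, the other lists and the marker lists were chosen with earlier results of these data known. Named by rule were all members, Ddx41, in each other list every gene with an adjusted p under 0.05 and the gene with the smallest p, and the 5 genes most like Flt3 among those with a mean of at least 1 CPM. Other genes named, among them Jchain, Ly6d and Nnt, fall outside these rules. Each sample was taken as 1 recipient mouse, so the tests set the genotype difference against the spread between recipients. The number of marrow donors is not given in the sources used here, and recipients may share a donor. That spread therefore need not be one between donors, and donor differences other than Ddx41 cannot be told apart from genotype. Over all genes tested, the smallest edgeR p was that of Nnt (4.99e-10), not that of Ddx41 (1.17e-06), and the reason was not tested. Counting errors cover counting alone.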

Additional observations from a re-analysis of the deposited data

Results flagged for a closer look

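Of 27 values checked in the 4 Ddx41+/+ samples for a single sample far from the others, 1 was flagged, where chance would give about 1 in 20, or 1.35. Ikzf3 was at 0.0484 CPM in Ddx41+/+ sample 1 against 0.790 to 0.912 CPM in the other Ddx41+/+ samples, a gap of 0.859 of the whole range. The Ddx41+/- group, with 3 samples, is too small for this check.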

How the results depend on the processing

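No paired analysis was run because no pairing is recorded, and the replicate numbers of the genotypes, 1 to 4 and 6 to 8, do not overlap. The paper reports the use of littermates in its transplant studies, so samples may share an origin that is not recorded. The 9 lymphoid priming genes gave 0 calls in every setting but the fit without Ddx41+/- sample 6, and leaving out each sample in turn gave 0 to 1. When each sample was left out, the log2 fold change ranged from -0.32 to 0.084 for Dntt and from -0.41 to 0.036 for Rag2, both above 0 only without sample 7, and from -0.034 to 0.017 for Ikzf1, above 0 only without sample 8. The 29 calls over all genes became 15 with library totals only, 14 with a non-robust fit, 91 with no expression filter, 156 with DESeq2, 74 at an adjusted p under 0.1, and 7 to 41 when each sample was left out. The 1 call in the other lists became 0 with library totals only and with a non-robust fit, 2 with no expression filter and at an adjusted p under 0.1, 3 with DESeq2, and 0 to 0 when each sample was left out. Of these, the fits without 1 sample have fewer samples, and the cause of the other changes was not tested. Blnk had adjusted p-values of 0.0647 with library totals only and 0.0604 with a non-robust fit. The early B-lineage median, an alternative chosen after seeing the data, was 0.50 to 0.85. Ddx41 kept its direction and call in all 14 alternatives. Il7r, Rag1 and Rag2 are limited by low counts, as are early B-lineage genes such as Pax5 and Blk.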
